A study of Homo sapiens with 12 samples.

Results

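The genes described here are the nuclear-encoded structural subunits of mitochondrial respiratory complexes I, II, III and IV. They were taken by name, as every row of the deposited gene table whose Ensembl identifier maps to a listed subunit symbol, and the rule uses no measured value, although the list was drawn up with earlier results of these data known. The list holds 59 genes of the 60605 in the table, of which 35 belong to complex I, 4 to complex II, 9 to complex III and 11 to complex IV. NDUFA4 was counted in complex IV, where its protein resides despite its name. All 59 passed the low count filter, with mean levels from 3.2 counts per 1000000 (CPM, scaled between libraries) upward, and the lowest count of any member in any library was 26.

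The RNA came from SBC5 cells, a human line established from a small cell lung cancer. All cells received either olaparib at 1 µM, which blocks PARP1 and PARP2, enzymes that signal DNA breaks, or its solvent DMSO, followed 2 hours later by 4 Gy of gamma radiation or no radiation, and were collected at 3 days. The 4 groups are vehicle (DMSO, 0 Gy), olaparib (olaparib, 0 Gy), radiation (DMSO, 4 Gy) and the combination (olaparib, 4 Gy), with 3 libraries each. All libraries come from 1 cell line, and the labels do not say whether the libraries of a group came from separate cultures, so p-values measure only the spread between libraries. In bulk RNA, a lower level per cell and fewer cells of a kind cannot be told apart.

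Totals ran from 14300459 to 38804959 counts per library, and the members together took 0.187% to 0.222% of them. Olaparib libraries 2 and 3 and radiation library 3 carried counts on many genes that are near silent in the other 9: the summed level of 381 olfactory receptor genes was 774 to 1305 CPM in these 3 against 356 to 479 CPM in the others. They are therefore shown apart, and the tests use 9 libraries: 3 vehicle, 1 olaparib, 2 radiation and 3 combination. With 1 library, olaparib was assumed to vary like the other groups. Of markers for this cancer, YAP1 (84.0 to 124 CPM), UCHL1 (47.4 to 59.1 CPM) and SYP (16.4 to 27.3 CPM) were present in the 9 libraries, whereas INSM1 and CHGA reached 0.54 CPM at most, and NEUROD1 and POU2F3, which define other subtypes, reached 3.25 and 1.21 CPM. Of 11 markers of other cell types, CD68 (78.07 to 99.97 CPM) and COL1A1 (11.7 to 17.3 CPM) were present and the other 9 reached 2.9 CPM at most.

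The respiratory chain moves electrons from NADH and succinate to oxygen. Complex I (NADH dehydrogenase) and complex II (succinate dehydrogenase, also an enzyme of the tricarboxylic acid cycle) pass electrons to coenzyme Q, complex III passes them on to cytochrome c, and complex IV (cytochrome c oxidase) reduces oxygen. Complexes I, III and IV pump protons, whose return through ATP synthase drives ATP formation. Complex II is built wholly from nuclear genes, and the others combine nuclear subunits with a core set made from mitochondrial DNA, so their assembly draws on both genomes.

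In the 9 libraries tested, the subunit mRNAs as a whole were lowest in the combination. Their summed level was 2181 ± 34.8 CPM in vehicle (SD, n = 3), 2264 CPM in the 1 olaparib library, 1990 ± 107 CPM in radiation (SD, n = 2) and 1787 ± 45.5 CPM in the combination (SD, n = 3). The combination libraries stood at 83.0%, 83.3% and 79.5% of the vehicle mean, below the radiation libraries at 94.7% and 87.8%, and the vehicle libraries at 98.2% to 101%. In the 9 libraries, the scaled sums of these groups therefore do not overlap. Radiation library 3, shown apart, stood at 77.0%, below all combination libraries. The separation also depends on scaling. As an unscaled share of all counts, the members took 0.201% to 0.208% in vehicle, 0.206% and 0.194% in radiation and 0.187% to 0.197% in the combination. By that share, radiation overlaps both other groups. All counts include mitochondrial RNA, which differed between these groups. It took 40.4% to 41.8% in vehicle, 37.2% and 38.0% in radiation and 36.0% to 36.5% in the combination. Its part in the unscaled shares was not tested. The sum is weighted to abundant mRNAs, and UQCRB alone, a complex III subunit, gave 438 to 498 of the CPM in vehicle.

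Complex IV had the lowest share of its vehicle level. Its sum was 340 ± 10.8 CPM in vehicle (SD, n = 3), 364 CPM in olaparib, 295 ± 15.3 CPM in radiation (SD, n = 2) and 246 ± 5.98 CPM in the combination (SD, n = 3), so that the combination libraries lay at 70.8% to 74.2% of the vehicle mean. Complex I went from 927 ± 23.3 CPM in vehicle to 771 ± 17.1 CPM in the combination (SD, n = 3 each), with combination libraries at 81.3% to 84.9%. Complex III went from 790 ± 18.7 CPM to 666 ± 25.1 CPM (SD, n = 3 each), and without UQCRB from 313 ± 15.1 CPM to 253 ± 7.2 CPM, at 78.1% to 82.4%. Complex II had the widest spread: its vehicle libraries ran from 90.9% to 109% of their mean and its combination libraries from 79.3% to 91.4%, so these groups overlap. Differences between complexes were not tested.

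**Figure D1:**
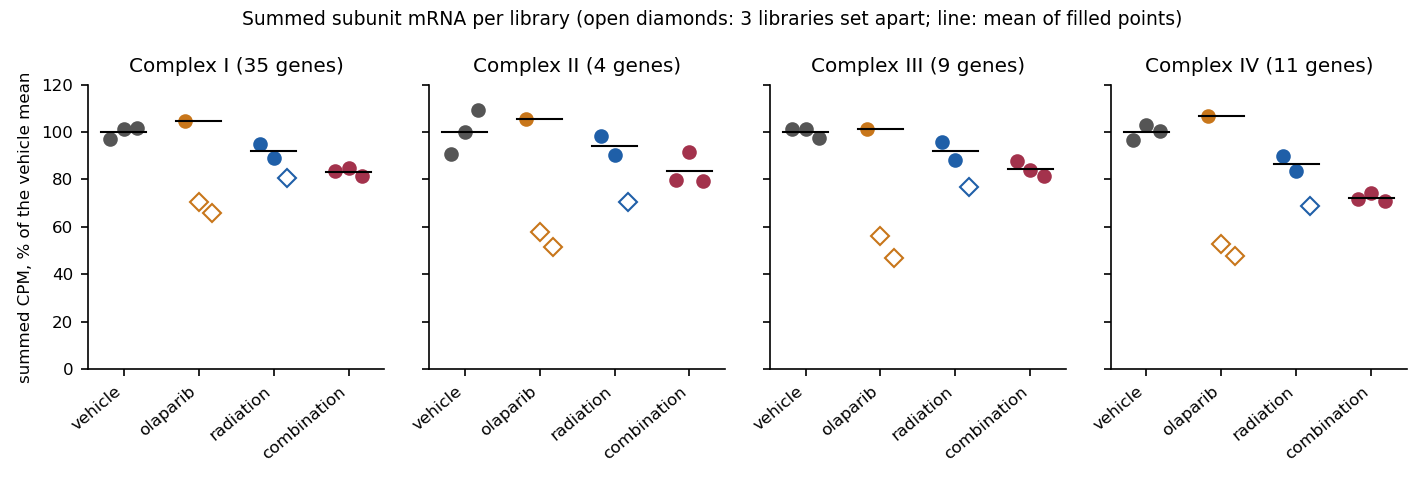
Summed CPM of the nuclear subunits of each complex in every library, as a percent of the vehicle mean, by treatment group. Filled points are the 9 libraries tested and the line is their group mean; open diamonds are the 3 libraries shown apart. The combination points of complex IV sit between 70.8% and 74.2%, below all filled points of the other groups.

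The comparison of the combination with vehicle takes in the changes of both single treatments together with any joint effect. In this comparison, 18 of the 59 subunits fell and 0 rose (edgeR quasi-likelihood test, Benjamini-Hochberg adjusted p under 0.05 over 30967 genes). Over all genes tested, 3.26% were called lower and 1.53% higher. Among 10647 nuclear protein-coding genes at or above the lowest mean level of any member, 8.69% were called lower. The median member had a log2 change of -0.37, and 55 of 59 estimates were below 0, against a median of 0.02 and 48.3% below 0 over all genes, and a median of -0.04 with 55.9% below 0 over the protein-coding genes of like level. In 33 of the 59, each combination library lay below each vehicle library, which held for 10.4% of all genes and 20.9% of the protein-coding genes of like level. At an unadjusted p under 0.05, 37 members were lower and 0 higher, beside 8.06% of all genes lower.

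By complex, 8 of 35 subunits of complex I fell (median log2 change -0.34), 1 of 4 of complex II (-0.33), 3 of 9 of complex III (-0.25) and 6 of 11 of complex IV (-0.51). Standard errors of single members ran from 0.0655 to 0.329 on the log2 scale and were widest for weakly detected mRNAs. Of the 20 members under 10 CPM, 1 was called, although their median change was -0.38; of the 21 between 10 and 30 CPM, 10 were called (median -0.49); and of the 18 at 30 CPM or more, 7 were called (median -0.25). Members that missed the threshold include COX8A, NDUFC2 and NDUFB6, with log2 changes of -0.84, -0.81 and -0.66.

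**Figure D2:**
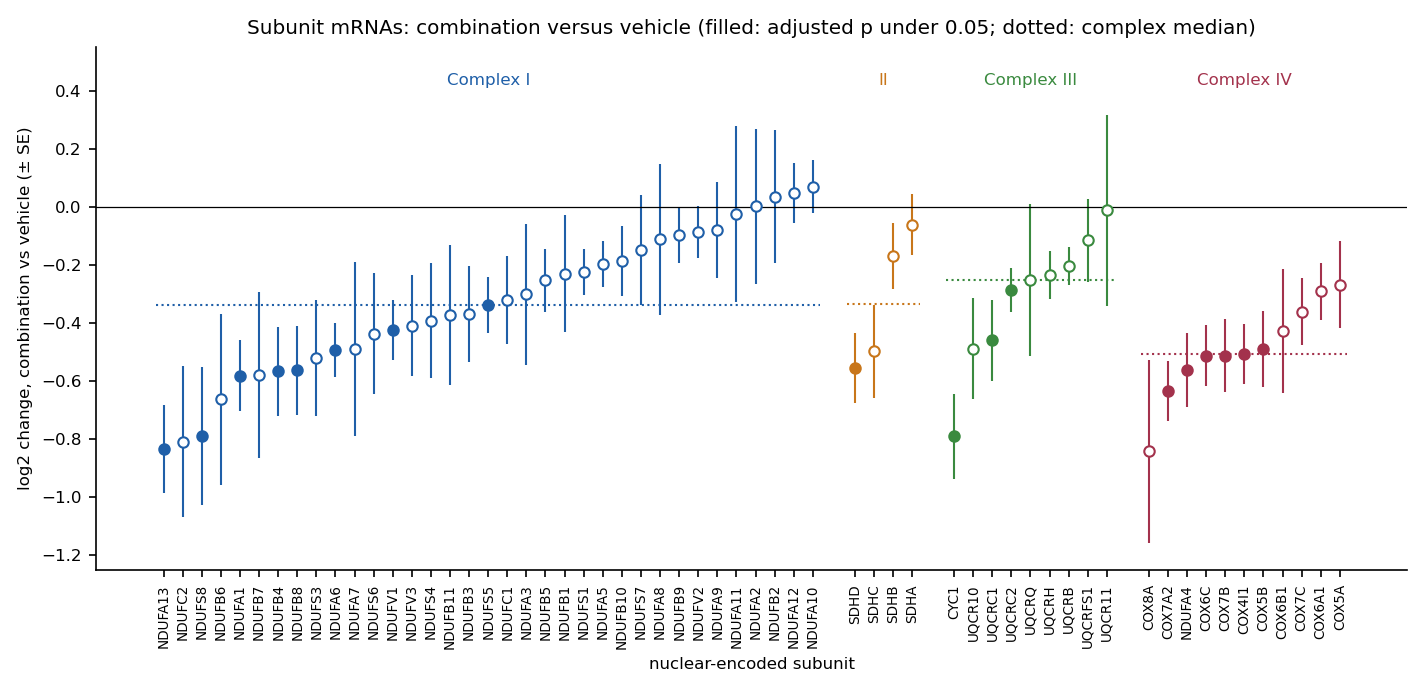
Log2 change of each of the 59 subunit mRNAs in the combination against vehicle, ordered within each complex, with bars of ± 1 standard error. Filled points have an adjusted p under 0.05 (18, all below 0); the dotted line is the median of the complex, lowest for complex IV at -0.51.

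The counts depend on scaling and on the libraries kept. Scaling by library size alone moves the median change of all genes from 0.02 to 0.22, turns the split of calls from 475 higher and 1010 lower into 2275 higher and 319 lower (1.03% of genes lower), and leaves 7 members lower and 1 higher, NDUFA10; the members' median is then -0.17, still below that of all genes. With all 12 libraries in the fit, 0 members and 0% of all genes are called lower, with a median change of the members of -0.37 as in the 9 libraries. With the olfactory receptor signal as a covariate 7 members pass, against 1.17% of all genes lower.

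Leaving out 1 library ended the calls of 9 of the 18 members in at least 1 fit. UQCRC1 had edgeR adjusted p-values of 0.0782, 0.112 and 0.0856 without vehicle library 1, 2 or 3, and 0.169 and 0.0899 without combination library 1 or 3. NDUFS8 had 0.133 and 0.156 without vehicle library 2 or 3, 0.0602 without the olaparib library, and 0.0861 and 0.177 without combination library 2 or 3. NDUFB8 had 0.173 and 0.0664 without vehicle library 1 or 3, and 0.0962 and 0.0569 without combination library 1 or 3. NDUFS5 had 0.179 and 0.0602 without vehicle library 2 or 3, and 0.182 and 0.119 without combination library 1 or 3. NDUFB4 had 0.127, 0.0546 and 0.0616 without vehicle library 3 or combination library 1 or 3. COX5B (0.137 without vehicle library 2 and 0.085 without combination library 1), UQCRC2 (0.118 without vehicle library 3 and 0.0665 without combination library 3), COX7B (0.0555) and NDUFV1 (0.0682, both without vehicle library 2) were the others. NDUFA13, CYC1, COX7A2, NDUFA1, NDUFA4, SDHD, COX6C, COX4I1 and NDUFA6 passed in each of these fits. Limma-voom did not call NDUFB8 or UQCRC1.

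Several members share short stretches of promoter sequence that match motifs known for respiratory genes. NRF1 and the ETS factor GABPA (also called NRF2) are transcription factors long linked to nuclear respiratory genes. RefSeq promoter sequences (GRCh38.p14, 250 bases before each start) were matched by symbol for 50 of the 59 members; NDUFA4, NDUFB5, NDUFB9, NDUFC2, NDUFS5, SDHC, UQCRB, CYC1 and COX6C had no entry. On either strand, the NRF1 letters GCGCATGCG were found in 5 of 50 (10% against 1.78% of 27305 promoters in the table and 2.77% of 12846 promoters of tested nuclear protein-coding genes). The ETS letters CCGGAAG were found in 14 of 50 (28% against 8.82% and 13.8%), and the SP1 letters GGGCGG in 30 of 50 (60% against 42.3% and 62.5%). The YY1 letters AAGATGGCG were found in 0 of 50 upstream, and in 7 of 50 (14%, against 1.85% and 3.28%) when the first 50 transcribed bases were included.

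The matches were also counted by call. Of the 14 members that fell in the combination and had a promoter entry, 2 held the NRF1 letters (14.3%), 4 the ETS letters (28.6%) and 7 the SP1 letters (50%). Of the 36 others, 3 (8.33%), 10 (27.8%) and 23 (63.9%) did; the difference was not tested. A match is a description of the letters, and binding was not measured. The 5 members that fell and hold an NRF1 or ETS match are printed here as 120 bases of the gene's strand, 5′ to 3′, with the matched letters in capitals. The longer capitals in NDUFB4 and SDHD are the NRF1 letters on both strands, which overlap because this stretch reads the same on each. The stretches are chrX:119871712-119871831 (NDUFA1), chr19:19516105-19516224 (NDUFA13), chr3:120596177-120596296 (NDUFB4), chr11:112086753-112086872 (SDHD) and chr2:97645942-97646061 (COX5B), all on the plus strand. They end at the base before the RefSeq start, except that of NDUFB4, which runs from 159 to 40 bases before it.
NDUFA1: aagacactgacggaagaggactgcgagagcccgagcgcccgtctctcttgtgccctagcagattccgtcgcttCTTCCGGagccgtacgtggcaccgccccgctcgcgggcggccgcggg
NDUFA13: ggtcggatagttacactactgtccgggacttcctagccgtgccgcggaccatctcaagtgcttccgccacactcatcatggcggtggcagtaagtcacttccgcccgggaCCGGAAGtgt
NDUFB4: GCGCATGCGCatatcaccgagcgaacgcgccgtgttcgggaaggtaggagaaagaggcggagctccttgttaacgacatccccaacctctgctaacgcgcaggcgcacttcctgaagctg
SDHD: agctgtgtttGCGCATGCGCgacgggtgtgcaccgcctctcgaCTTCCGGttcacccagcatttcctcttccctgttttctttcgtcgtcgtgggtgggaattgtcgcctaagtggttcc
COX5B: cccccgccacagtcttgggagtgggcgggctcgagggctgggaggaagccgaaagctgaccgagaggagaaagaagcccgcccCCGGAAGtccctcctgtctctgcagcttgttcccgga

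Complex I has a core that carries out catalysis, of which 6 nuclear genes encode the flavin and iron-sulfur subunits. Of these 6, 2 fell in the combination, and all 6 estimates were below 0. NDUFV1, which binds NADH and the flavin cofactor, was at 40.2, 49.5 and 47.0 CPM in vehicle, 46.7 CPM in olaparib, 42.6 and 40.03 CPM in radiation and 33.3, 34.8 and 33.8 CPM in the combination. The libraries shown apart were lower still, at 18.8 and 17.3 CPM (olaparib 2 and 3) and 28.7 CPM (radiation 3). All combination libraries lay below every other library of the 9, and the log2 change from vehicle was -0.43 ± 0.102 (SE; edgeR adjusted p = 0.00399). NDUFS8, an iron-sulfur subunit of the arm that leads to the quinone site, was at 7.995, 9.72 and 10.1 CPM in vehicle, 9.38 CPM in olaparib, 7.50 and 3.49 CPM in radiation and 6.19, 5.42 and 4.51 CPM in the combination. Its change was -0.79 ± 0.237 (SE; edgeR adjusted p = 0.0334). The radiation libraries straddle the combination libraries here, and the 3 combination counts were 127, 121 and 95 reads.

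The other 4 core subunits did not pass. NDUFS3 was at 10.9, 11.5 and 9.76 CPM in vehicle and 7.21, 9.15 and 5.99 CPM in the combination, without overlap (log2 change -0.52, edgeR adjusted p = 0.140). NDUFS1, the largest core subunit, was at 99.7, 113 and 112 CPM in vehicle and 86.8, 95.5 and 95.7 CPM in the combination (log2 change -0.22, edgeR adjusted p = 0.0969). NDUFS7 overlapped between groups, at 10.4 to 11.4 CPM in vehicle and 8.25 to 11.3 CPM in the combination. NDUFV2, the partner of NDUFV1 in the NADH-binding module, was nearly level across the 9 libraries, from 51.4 to 59.4 CPM, with a log2 change of -0.09 ± 0.0910 (SE; edgeR adjusted p = 0.799). Partner subunits of the same module thus had different estimates, a difference that was not tested.

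Among the accessory subunits of complex I, which surround the core and stabilise it, 6 of 29 fell. NDUFA13, also known as GRIM-19, had the lowest estimate of any called member. It was at 18.0, 24.6 and 24.3 CPM in vehicle, 25.0 CPM in olaparib, 17.0 and 16.3 CPM in radiation and 10.3, 14.8 and 12.4 CPM in the combination. Of the libraries shown apart, radiation library 3 (11.2 CPM) was within the combination range. Olaparib libraries 2 and 3 (9.21 and 9.07 CPM) were below it. The combination lay below all other libraries of the 9, with a log2 change from vehicle of -0.83 ± 0.152, or 0.561 times (SE; edgeR adjusted p = 6.69e-05).

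NDUFA1, a small membrane-arm subunit encoded on the X chromosome, was at 31.6, 29.5 and 31.6 CPM in vehicle, 33.1 CPM in olaparib, 22.7 and 21.9 CPM in radiation and 21.9, 22.0 and 18.1 CPM in the combination. Radiation and combination libraries were close to each other and below vehicle. The log2 change in the combination was -0.58 ± 0.122 (SE; edgeR adjusted p = 0.000683), and in radiation -0.47 (edgeR adjusted p = 0.0709). NDUFA6, another accessory subunit, was at 68.1 to 70.8 CPM in vehicle, 61.5 and 49.7 CPM in radiation and 45.0 to 54.5 CPM in the combination (log2 change in the combination -0.50, edgeR adjusted p = 0.000106).

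NDUFB4 and NDUFB8, subunits of the membrane arm, had another order of groups. NDUFB4 was at 18.7, 16.1 and 20.8 CPM in vehicle, 22.4 CPM in olaparib, 20.6 and 15.7 CPM in radiation and 12.2, 13.4 and 11.97 CPM in the combination. Its log2 change was -0.57 ± 0.153 in the combination (SE; edgeR adjusted p = 0.0135) and -0.03 in radiation. NDUFB8 was at 22.2, 15.3 and 20.0 CPM in vehicle, 19.8 and 18.5 CPM in radiation and 11.7, 14.5 and 12.6 CPM in the combination (log2 change -0.56, edgeR adjusted p = 0.0142). In both, radiation overlapped vehicle and the combination lay below both. For NDUFB4, 8.34% of the counts on the gene and its named pseudogene copies lay on the copies.

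The range within complex I was wide. Of its 12 NDUFA accessory subunits 3 fell, of its 11 NDUFB subunits 2, of NDUFC1 and NDUFC2 0, and of the 4 NDUFS and NDUFV accessory subunits 1, NDUFS5 (57.3 to 66.0 CPM in vehicle, 44.0 to 55.5 CPM in the combination). NDUFC2 had a low estimate that missed the threshold, at 5.21, 8.04 and 8.35 CPM in vehicle and 3.56, 3.99 and 4.798 CPM in the combination (log2 change -0.81, edgeR adjusted p = 0.0545). At the other end, NDUFA10 was at 52.4, 52.0 and 53.1 CPM in vehicle and 57.2, 52.6 and 55.4 CPM in the combination (log2 change 0.07 ± 0.0920, SE), and NDUFA12 was at 37.4 to 45.5 CPM in vehicle and 40.3 to 48.9 CPM in the combination (log2 change 0.05).

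Complex II has 4 subunits, all nuclear, and 1 of them fell. SDHD, a membrane anchor that helps bind coenzyme Q, was at 27.7, 30.7 and 34.9 CPM in vehicle, 38.1 CPM in olaparib, 27.1 and 31.2 CPM in radiation and 20.1, 23.4 and 20.0 CPM in the combination. Radiation library 3 (22.9 CPM) and olaparib library 2 (20.2 CPM), shown apart, were within the combination range. Olaparib library 3 (15.9 CPM) was below it. The combination lay below all other libraries of the 9, with a log2 change of -0.55 ± 0.120, or 0.681 times vehicle (SE; edgeR adjusted p = 0.000997). SDHC, the other membrane anchor, was at 19.3, 16.3 and 19.2 CPM in vehicle, 13.3 CPM in olaparib, 16.6 and 14.4 CPM in radiation and 12.1, 15.9 and 10.8 CPM in the combination. Its groups did not overlap between vehicle and combination, and its log2 change of -0.50 ± 0.160 missed the threshold (SE; edgeR adjusted p = 0.0540).

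The catalytic subunits of complex II were closer to vehicle. SDHB, the iron-sulfur subunit, was at 28.0, 30.3 and 30.4 CPM in vehicle and 27.3, 27.3 and 24.4 CPM in the combination (log2 change -0.17, edgeR adjusted p = 0.572). SDHA, the flavoprotein, was at 37.5, 46.4 and 50.6 CPM in vehicle and 39.4, 46.6 and 43.0 CPM in the combination (log2 change -0.06, edgeR adjusted p = 0.907). SDHA has near-identical copies in the genome, and 39.3% of the counts on the gene and its named copies were assigned to the copies, so its level is uncertain.

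In complex III, CYC1, UQCRC1 and UQCRC2 fell. CYC1 encodes cytochrome c1, which hands electrons to cytochrome c. It was at 23.8, 19.9 and 22.9 CPM in vehicle, 26.6 CPM in olaparib, 14.8 and 16.8 CPM in radiation and 12.2, 13.2 and 13.1 CPM in the combination. In the 9 libraries, radiation lay below vehicle and the combination below both. Radiation library 3, shown apart, was at 13.1 CPM, within the combination range. The log2 change in the combination was -0.79 ± 0.146, or 0.578 times (SE; edgeR adjusted p = 7.76e-05). In radiation it was -0.49 (edgeR adjusted p = 0.148).

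UQCRC1 and UQCRC2 form the matrix-facing core of the complex and are its largest subunits. UQCRC1 was at 22.4, 23.1 and 22.8 CPM in vehicle, 21.2 and 18.1 CPM in radiation and 15.1, 18.0 and 16.4 CPM in the combination (log2 change -0.46, edgeR adjusted p = 0.0331). UQCRC2 was at 125 to 146 CPM in vehicle and 109 to 114 CPM in the combination (log2 change -0.29, edgeR adjusted p = 0.0115). The iron-sulfur protein UQCRFS1 had a log2 change of -0.12 (edgeR adjusted p = 0.842). UQCRB was at 496, 498 and 438 CPM in vehicle and 435, 409 and 398 CPM in the combination (log2 change -0.21, edgeR adjusted p = 0.0510), and UQCR11, at 2.37 to 3.85 CPM in both groups, had the smallest change of the complex (-0.01 ± 0.329, SE).

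Complex IV had 6 of 11 subunits lower, and in 10 of 11 each combination library lay below each vehicle library, COX5A being the exception. COX7A2, the widely expressed isoform of subunit VIIa, had the smallest adjusted p of all members. It was at 47.5, 56.6 and 52.6 CPM in vehicle, 54.7 CPM in olaparib, 43.0 and 32.9 CPM in radiation and 32.7, 33.7 and 34.4 CPM in the combination. The combination lay near the lower radiation library and below vehicle, with a log2 change of -0.64 ± 0.104, or 0.643 times (SE; edgeR adjusted p = 6.52e-06).

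COX4I1, the largest nuclear subunit of the complex, was at 42.1, 51.4 and 52.0 CPM in vehicle, 49.1 CPM in olaparib, 37.4 and 41.6 CPM in radiation and 32.3, 33.6 and 36.4 CPM in the combination. In the 9 libraries, the groups followed each other without overlap from vehicle to radiation to combination. Radiation library 3, shown apart, was at 34.1 CPM, within the combination range. The change in the combination was -0.51 ± 0.103 on the log2 scale (SE; edgeR adjusted p = 0.000418). NDUFA4 was at 31.0, 27.0 and 28.9 CPM in vehicle, 25.3 and 27.8 CPM in radiation and 22.2, 16.3 and 20.3 CPM in the combination (log2 change -0.56, edgeR adjusted p = 0.00166). The others that fell were COX6C (log2 change -0.51), COX7B (-0.51) and COX5B (-0.49).

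Of the 5 subunits of complex IV that did not pass, COX8A had the lowest estimate of all 59 members. It was weakly detected, at 3.53, 4.72 and 4.22 CPM in vehicle, 6.23 CPM in olaparib, 3.23 and 3.30 CPM in radiation and 2.14, 2.20 and 2.61 CPM in the combination. Among the libraries tested, each combination library lay below each of the others. The combination libraries held 44 to 55 reads each (log2 change -0.84 ± 0.314, SE; edgeR adjusted p = 0.124). Of the libraries shown apart, those of olaparib were lower still (1.82 and 1.71 CPM) and that of radiation was not (3.55 CPM). COX7C (log2 change -0.36) and COX6A1 (-0.29) had adjusted p-values of 0.0546 and 0.0666 (edgeR). COX5A, a subunit on the matrix side, was at 16.3, 21.6 and 18.9 CPM in vehicle and 16.4, 17.3 and 13.4 CPM in the combination (log2 change -0.27, edgeR adjusted p = 0.434).

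**Figure D3:**
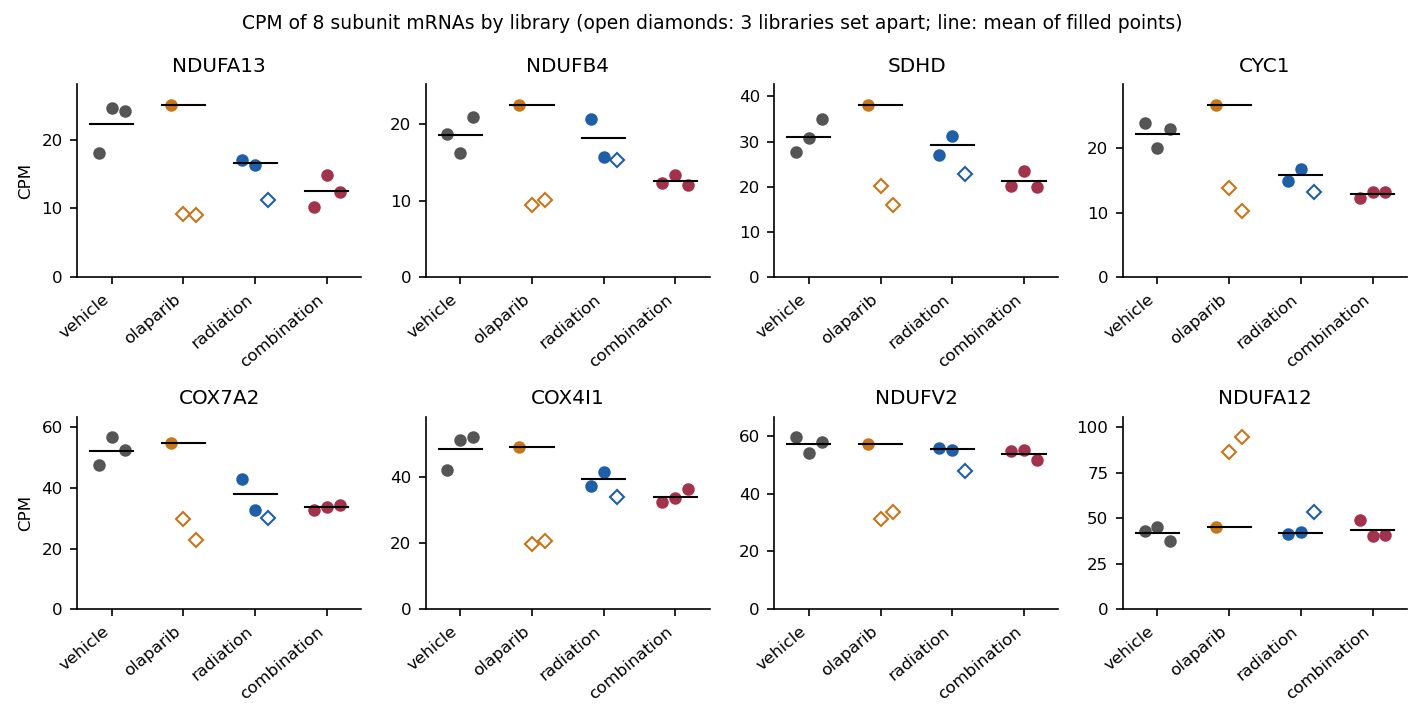
CPM in every library for 8 subunit mRNAs, by treatment group; the line is the mean of the filled points, and open diamonds are the 3 libraries shown apart. NDUFA13, NDUFB4, SDHD, CYC1, COX7A2 and COX4I1 were called lower in the combination than in vehicle. NDUFV2 and NDUFA12 were not, and the diamonds of NDUFA12 lie above its filled points.

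Radiation against vehicle, with 2 radiation libraries, gave 1 member lower and 0 higher, beside 0.678% of all genes lower and 0.42% higher. That member was COX7A2 (log2 change -0.46 ± 0.116, SE; edgeR adjusted p = 0.0199). Its adjusted p rose to 0.182 without vehicle library 2, 0.0532 without vehicle library 3 and 0.492 without radiation library 2, and there were 2 members lower without vehicle library 1 (0.596% of all genes) or without radiation library 1 (0.574%). The members' median log2 change was -0.14, with 49 of 59 estimates below 0 (52.7% over all genes), and 10 members were lower at an unadjusted p under 0.05, beside 5.59% of all genes. The lowest estimate was that of NDUFC2 (-1.03, edgeR adjusted p = 0.0678), on 4.07 and 3.01 CPM.

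Olaparib against vehicle, with 1 olaparib library, gave 0 members in either direction, beside 0.0581% of all genes lower and 0.00969% higher. The members' median log2 change was 0.10, with 15 of 59 estimates below 0 (52.1% over all genes). At an unadjusted p under 0.05, 1 member was lower, SDHC (log2 change -0.46, edgeR adjusted p = 1), beside 2.03% of all genes. With olaparib libraries 2 and 3 in the fit of all 12, the direction turns: the median is -0.46, 55 of 59 estimates are below 0, and the median of all genes is 0.39. DESeq2 and limma-voom gave 0 members as well.

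Between the combination and radiation alone, edgeR called 0 members, beside 0.426% of all genes lower and 0.142% higher. The members' median log2 change was -0.21, and 47 of 59 estimates were below 0 (46.4% over all genes). At an unadjusted p under 0.05, 16 members were lower and 0 higher, beside 4.93% of all genes lower. SDHD had the smallest adjusted p (log2 change -0.46 ± 0.133, SE; edgeR adjusted p = 0.0857). DESeq2 called 3 (beside 7.14% of the 5151 genes it gave an adjusted p), limma-voom 0, and 2 passed without radiation library 2 (beside 0.977% of all genes).

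Between the combination and the 1 olaparib library, 14 members were lower and 0 higher, beside 1.54% of all genes lower and 0.417% higher, and 4.15% of protein-coding genes of like level lower. These were 6 subunits of complex IV, 5 of complex I, 2 of complex III and 1 of complex II, with a median log2 change over all 59 of -0.45, and 31 were lower at an unadjusted p under 0.05 (5.94% of all genes). With all 12 libraries the median turns to 0.10, with 23 of 59 estimates below 0 and a median of all genes of -0.33. In the 9 libraries, the lowest changes were those of COX8A (-1.42 ± 0.405, SE; edgeR adjusted p = 0.0414), CYC1 (-1.05 ± 0.192; 0.000147), NDUFA13 (-1.001 ± 0.201; 0.000744), SDHD (-0.85 ± 0.160; 0.000278), NDUFB4 (-0.84 ± 0.204; 0.00925) and COX6C (-0.74 ± 0.142; 0.000374). The count fell to 9 without combination library 3 (1.18% of all genes) and to 7 with the replicate number as a block (1.21%). COX8A missed the threshold without vehicle library 2 (edgeR adjusted p = 0.0573) and without combination library 1 (0.108), 2 (0.0827) or 3 (0.0548). This comparison and that with vehicle share the combination libraries, so their values are not independent.

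The interaction, which is the change in the combination less the changes of both treatments given alone, was not called for any member (0 by edgeR, DESeq2 and limma-voom), beside 0.103% of all genes lower and 0.0969% higher. The members' median was -0.24 on the log2 scale, with 50 of 59 estimates below 0 (45.2% over all genes), and 16 were below 0 and 0 above at an unadjusted p under 0.05, beside 3.38% of all genes below 0. With all 12 libraries the members' median turns to 0.39, with 12 of 59 below 0 and a median of all genes of -0.39. SDHD had the smallest adjusted p in the 9 libraries (-0.75 ± 0.209, SE; edgeR adjusted p = 0.149). The interaction rests on the 1 olaparib library, whose subunit levels were above the vehicle mean in 44 of 59. Over all genes, 52.1% of the estimates of olaparib against vehicle were below 0.

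The mitochondrially encoded mRNAs, which supply the core of complexes I, III and IV, had another pattern over the treatments. Of 13, 12 fell in the combination against vehicle (median log2 change -0.90), 12 in radiation (-0.75) and 3 in olaparib (-0.27), and 1 in the combination against radiation. MT-ND3, a complex I subunit, went from 355 ± 9.54 CPM in vehicle to 140 ± 4.63 CPM in the combination (SD, n = 3 each; log2 change -1.34), and MT-ATP6, of ATP synthase, had a log2 change of -1.05. The nuclear subunits, by contrast, had medians of -0.37, -0.14 and 0.10 in the same 3 comparisons with vehicle, which share their vehicle libraries. Whether the nuclear and mitochondrial sets differ was not tested.

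Of 18 nuclear subunits of ATP synthase, 12 fell and 0 rose in the combination against vehicle (median log2 change -0.44). ATP5MC2, of the proton-carrying ring, had a log2 change of -0.78 and ATP5F1E, a small subunit of the central stalk, -0.70. Of 18 genes of the tricarboxylic acid cycle and pyruvate dehydrogenase, complex II left out, 7 fell (median -0.28), with the largest changes in the malate dehydrogenase MDH2 (-0.72) and the isocitrate dehydrogenase IDH2 (-0.70).

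Genes that build the complexes without being part of them were called in few cases, as were all genes tested (3.26% lower and 1.53% higher). Of 52 assembly factors, 1 fell (COX16, log2 change -0.78, edgeR adjusted p = 0.0486) and 1 rose (COX19, a factor for complex IV, 0.54, edgeR adjusted p = 0.0072), with a median of -0.03. Of 15 genes of cytochrome c and coenzyme Q synthesis 0 passed by edgeR, with 1 at an unadjusted p under 0.05; cytochrome c itself, CYCS, had a log2 change of 0.16 (edgeR adjusted p = 0.477). Of 9 tissue-specific or alternative subunit isoforms, 5 passed the filter on low counts and 0 were called, with 1 at an unadjusted p under 0.05. Of 78 mitochondrial ribosomal proteins 4 fell (median -0.14), led by MRPL20 (-0.78) and MRPS34 (-0.66).

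**Figure D4:**
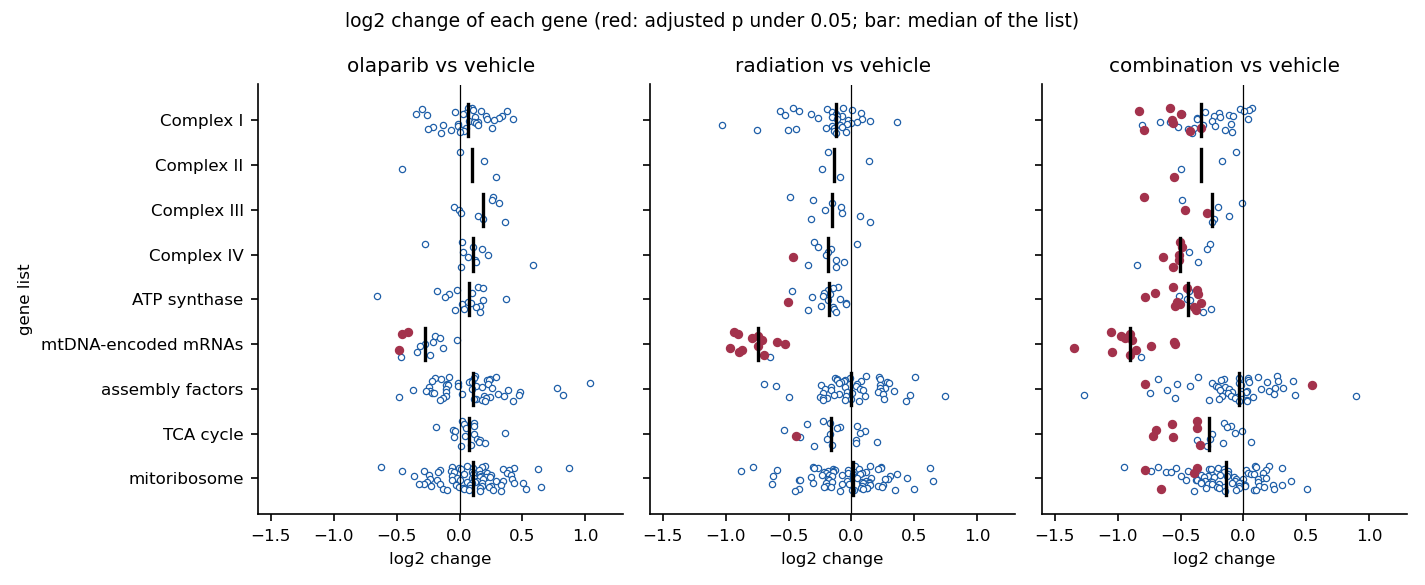
Log2 change of each gene in 3 comparisons with vehicle, by gene list; red points have an adjusted p under 0.05 and the bar is the median of the list. The mitochondrially encoded mRNAs lie left of 0 in radiation and in the combination (medians -0.75 and -0.90), the nuclear complexes and ATP synthase have medians below 0 in radiation and lower ones in the combination, and assembly factors lie on both sides of 0.

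Of 14 transcriptional regulators of respiratory genes, 2 rose and 2 fell in the combination. PPARGC1B, a coactivator of mitochondrial biogenesis, rose from 11.2 ± 1.31 to 19.2 ± 2.8 CPM (SD, n = 3 each; log2 change 0.77, edgeR adjusted p = 0.000674), and TFB1M, a mitochondrial ribosomal RNA methyltransferase, had a log2 change of 0.56 (edgeR adjusted p = 0.0238). GABPA, whose letters are among the motifs above, fell from 69.4 ± 2.37 to 54.6 ± 4.42 CPM (SD, n = 3 each; log2 change -0.35, edgeR adjusted p = 0.00802), and SP1 fell by 0.29 on the log2 scale. NRF1 was at 6.02 ± 0.585 and 6.31 ± 1.17 CPM (SD, n = 3 each; log2 change 0.07), TFAM, which packages mitochondrial DNA, had a log2 change of -0.27 (edgeR adjusted p = 0.111), and PPARGC1A was barely detected, at 0.376 CPM in vehicle.

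Cytosolic ribosomal proteins, which like many of these subunits have short mRNAs, moved in the same comparison. Of 78, 53 fell and 0 rose in the combination against vehicle (median log2 change -0.36), with RPL27 (-0.74) among them. Transcript length also moved with the calls over all genes. Among protein-coding genes at the members' levels, 31.4% of the 70 with a median transcript under 500 bases were called lower, 12.8% of the 1189 between 500 and 750 bases and 7.15% of the 3946 of 2500 bases or more. Of the members, 28 lay between 500 and 750 bases, with a median log2 change of -0.38 against -0.09 for all genes of that length and level; the 6 members under 500 bases had a median of -0.37 against -0.38. With a trend on transcript length removed from each library, 17 members were called lower, all among the 18.

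The neuroendocrine and subtype marker list also moved: its summed level was 199 to 212 CPM in vehicle and 152 to 175 CPM in the combination. Most of this sum came from YAP1, UCHL1 and SYP, with medians of 99.5, 56.2 and 20.9 CPM over the 9 libraries. Of the 9 tested genes of the list, only the subtype marker YAP1 fell (log2 change -0.41) and 0 rose. The markers of other cell types summed to 104 to 119 CPM in vehicle and 98.8 to 123 CPM in the combination, with 0 of 8 tested called by edgeR and 0 at an unadjusted p under 0.05. The part of these in the subunit levels was not tested.

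In the 3 libraries shown apart, most subunits were lower still. In olaparib libraries 2 and 3, 51 members each lay below the lowest vehicle library, and in radiation library 3, 47. The same count was not made over all genes, so these counts do not set the members apart from other genes. The members' median log2 level against the vehicle mean was -0.78, -0.97 and -0.44, beside -0.40, -0.43 and -0.13 for the 18001 genes at 1 CPM or more in these units. Summed CPM of complex IV was 52.7%, 47.8% and 69.0% of the vehicle mean. These libraries bear the labels of the single treatments, so with them in the groups the comparison of the combination with olaparib changes: 23 of 59 estimates are below 0, those of COX6A1, NDUFA1, COX4I1, NDUFS5, UQCRH and NDUFA6 among the 14 called turn positive, and 0 members pass.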

How the data were processed

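Total RNA of 12 libraries was sequenced with strand kept. The authors quantified reads with kallisto 0.46.1, followed by DESeq2, per the submitters' processing notes, and deposited an estimated count per gene and library; the transcriptome release or build is not given in the sources used here. Of 60649 rows, 44 pseudoautosomal Y copies were added to their X counterparts. Estimates were rounded. In R 4.3.3 with edgeR 4.0.16, 9 libraries were filtered (filterByExpr), scaled (TMM) and fitted with 1 mean per group by robust quasi-likelihood, with Benjamini-Hochberg adjustment over 30967 genes; an adjusted p under 0.05 was called. The standard error is the log2 change over the square root of F. Alternatives used DESeq2 1.42.0, limma-voom (limma 3.58.1), other scalings, filters and libraries. The fit was tested on simulated data. Transcript lengths and gene types came from GENCODE 29.

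The members, gene lists and the 3 libraries shown apart were chosen with earlier results of these data known. Members were named by rule: the 12 largest changes among those called in the combination against vehicle, the extremes of each complex, up to 6 called in other comparisons, the core subunits of complex I, all of complex II, and of other lists the 2 largest called changes and NRF1, GABPA, PPARGC1A, TFAM and CYCS. Members outside it (NDUFA9, COX7C, COX6A1 among them) were chosen after their values were seen. Some genes that the rule or the marker lists name are not reported here. Counting error and the number of libraries limit the precision.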

Additional observations from a re-analysis of the deposited data

Results flagged for a closer look

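In the 3 libraries shown apart, NDUFA9 and NDUFA12 went against the other subunits, with levels in all 3 above each vehicle library. NDUFA12, an accessory subunit of complex I, was at 86.7, 94.5 and 53.3 CPM (olaparib 2, olaparib 3, radiation 3), against 37.4 to 45.5 CPM in vehicle. NDUFA9 was at 20.7, 19.9 and 18.5 CPM, against 15.2 to 15.9 CPM in vehicle.

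Among related genes outside the members, 3 had an interaction between the treatments past the threshold by edgeR's quasi-likelihood test, each resting on 1 olaparib library. MT-ND4, a mitochondrially encoded subunit of complex I, was at 13515 ± 247 CPM in vehicle (SD, n = 3), 9704 CPM in olaparib, 7374 ± 169 CPM in radiation (SD, n = 2) and 7476 ± 519 CPM in the combination (SD, n = 3). Its interaction was 0.50 ± 0.0870 on the log2 scale (SE; edgeR adjusted p = 0.00058). ATP5F1A, the alpha subunit of ATP synthase, was at 154, 170, 142 and 104 CPM (group means in the same order), with an interaction of -0.60 (edgeR adjusted p = 0.0304). ATP5F1E was at 160.0, 172, 137 and 98.4 CPM, with an interaction of -0.58 (edgeR adjusted p = 0.0304). With all 12 libraries the adjusted p-values of MT-ND4, ATP5F1A and ATP5F1E were 0.159, 0.93 and 0.782, with interactions of 1.05, 0.05 and 0.18, and with the olfactory receptor covariate they were 0.498, 0.259 and 0.45. MT-ND4 passed with each of the 8 other libraries left out in turn, but limma-voom did not call it (interaction 0.49). Without the olaparib library there is no interaction. Neither ATP5F1A nor ATP5F1E passed with a stricter count filter or with the transcript length trend removed, and ATP5F1E did not pass with the replicate block. ATP5F1A did not pass without vehicle library 2 (0.189), radiation library 1 (0.256) or combination library 1 (0.107), and ATP5F1E without vehicle library 2 (0.101) or 3 (0.0641), radiation library 1 (0.138) or combination library 1 (0.0534) or 3 (0.0803).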

How the results depend on the processing

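In the combination against vehicle, 18 members were lower. This became 0 with all 12 libraries, 7 with the olfactory receptor covariate and 7 with library size only (plus 1 higher), and ranged from 12 to 25 when each library was left out in turn. The other alternatives gave 17 to 24. In radiation the count of 1 became 0 with all 12 libraries, the covariate, the compared groups only, library size only and the transcript length trend removed, 3 with DESeq2 and 4 with nuclear protein-coding genes only (0 to 2 with each library left out). The combination against radiation had 0, and 3 with DESeq2 (0 to 2 with each library left out). The combination against olaparib had 14, and 0 with all 12 libraries, 5 with the covariate, 6 with library size only and 7 with the replicate block (9 to 18 with each library left out). Olaparib and the interaction stayed at 0 in each alternative that could be fitted; without the 1 olaparib library, its comparisons and the interaction had no value.

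With all 12 libraries, the members' median between combination and olaparib turned from -0.45 to 0.10 (23 of 59 below 0), that of olaparib against vehicle from 0.10 to -0.46 and that of the interaction from -0.24 to 0.39. Of the 14 called in the first of these, 6 turned positive: COX6A1 0.32, NDUFA1 0.053, COX4I1 0.19, NDUFS5 0.11, UQCRH 0.33 and NDUFA6 0.10; the cause was not tested. The replicate block called 18 members in the combination against vehicle, the same 18, and apart from the combination against olaparib changed no other count of calls. Between libraries with the same number, the deviations from the group means had correlations from -0.046 to 0.006, olaparib left out. With so few libraries per group, and the deviations of the 2 radiation libraries being mirror images, this cannot decide whether the numbers pair libraries. A trend on protein length was not run for want of a protein table; transcript length and the test on nuclear protein-coding genes were added after the data were seen. Depth limits the 20 members under 10 CPM.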
